A study of Homo sapiens with 4 samples.

Results

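The genes described are the receptors NOTCH1 and NOTCH2 and 7 genes known as NOTCH targets or as parts of the B-cell NOTCH response, HES1, HES4, HEY1, DTX1, NRARP, CR2 and FYN. They were chosen by symbol, with earlier results of these data known. Every probe set (a group of array probes for 1 gene) annotated to 1 of these symbols alone was taken. That gave 22 probe sets for 9 genes, of 45259 probe sets for 18239 genes on the array. Expression had been measured in 2 established human cell lines of mantle cell lymphoma, REC-1 and Z138. This lymphoma is a B-cell malignancy that carries cyclin D1 under immunoglobulin gene control. The 4 groups were REC-1 with CC-292, REC-1 control, Z138 with CC-292 and Z138 control, with 1 array each. CC-292 inhibits Bruton tyrosine kinase (BTK), which carries the B-cell receptor signal. Exposure was 48 h, at 1 uM by the protocol and 1 mM by the titles of the treated samples. No time is given for the Z138 control in its title, and the labels do not say what the controls received or whether either line carries a NOTCH mutation.

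NOTCH receptors sit in the cell membrane. When a ligand on a neighbouring cell is bound, proteases release the intracellular part of the receptor, which enters the nucleus and joins the DNA-binding protein RBPJ and a Mastermind coactivator to switch on target genes. HES and HEY genes, which encode repressors, are the classical targets in many tissues. In B cells NOTCH2 is needed for marginal zone cells, and activating mutations of NOTCH1 or NOTCH2 recur in mantle cell lymphoma and in chronic lymphocytic leukaemia.

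RBPJ is known to bind sequences around TGGGAA. The upstream sequences of HES1 and HES4 are shown because both are classical targets that were far brighter in REC-1 and hold this motif. They are the 250 bases before the transcription start in RefSeq, build GRCh38.p14. HES1 lies on the plus strand at chr3:194135898-194136147 and HES4 on the minus strand at chr1:1000098-1000347. Capitals mark TGGGAA, which was searched on both strands and did not overlap another match.
HES1: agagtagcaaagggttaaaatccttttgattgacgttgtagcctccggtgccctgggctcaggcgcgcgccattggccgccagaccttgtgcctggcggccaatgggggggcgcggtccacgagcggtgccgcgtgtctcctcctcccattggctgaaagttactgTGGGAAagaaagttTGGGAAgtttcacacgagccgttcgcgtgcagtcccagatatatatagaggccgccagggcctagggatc
HES4: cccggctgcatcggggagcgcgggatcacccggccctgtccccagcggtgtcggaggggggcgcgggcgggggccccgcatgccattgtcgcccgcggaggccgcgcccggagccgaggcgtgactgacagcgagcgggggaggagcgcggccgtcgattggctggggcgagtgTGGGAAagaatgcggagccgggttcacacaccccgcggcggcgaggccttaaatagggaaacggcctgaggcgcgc
HES1 held 2 matches, beginning 84 and 70 bases before the start, and HES4 held 1, beginning 76 bases before it. Upstream sequences of NOTCH1, NOTCH2, NRARP and CR2 held none in this window, and FYN held 1 before 1 of its 4 annotated starts. DTX1 and HEY1 were not searched. Of 35116 upstream sequences of this length, 20.9% held at least 1 match and 2.90% at least 2. A match is a description of the letters and not a measured binding site.

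Of the 9 genes, the 7 on the target side were called higher in REC-1 than in Z138, and the receptor genes NOTCH1 and NOTCH2 were not called. Under some alternative processing choices NOTCH2 was also called higher in REC-1. HES4, HEY1, HES1, CR2, FYN, DTX1, NRARP and also NOTCH2 were brighter on both REC-1 arrays than on both Z138 arrays, as were 37.9% of the genes kept for testing and 29.9% of all genes with no brightness filter. Among the 7 called genes, the REC-1 minus Z138 difference averaged over both conditions was smallest for NRARP, at 1.29 on the log2 scale. It was at least 4.95 for HES4 and at least 4.99 for CR2, lower bounds that cannot be ranked. The difference was -0.09 for NOTCH1 and 0.61 for NOTCH2. Of the genes described further down, NOTCH3 and NOTCH4 were also called higher in REC-1 on their brightest probe sets. Both passed the brightness filter through REC-1 alone, and not all of their probe sets went the same way. Other known targets were called in both directions. CC-292 differences within a line were below 0.5 in size for all 9 genes on their brightest probe set, and none passed a test over both lines. In a bulk culture, fewer cells with a transcript and less of it per cell cannot be told apart.

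Values are log2 signals, so that 1 stands for a 2-fold difference, and they compare arrays within a probe set and not genes with each other. A gene is represented by its brightest probe set. It entered the fit across genes if its highest value reached 4.63, the median of all values, and 10823 genes did, among them all 9 described here. Of 23 probe sets for nonspecific background, 22 lay below 4.63 on all 4 arrays. Where a value lay below 4.63 in the dimmer line, the fold or log2 difference is therefore given as "at least", computed against 4.63, beside the adjusted p of the fit on the values as deposited. That adjusted p belongs to the deposited difference, and the bound itself was not tested. HES4, HEY1 and CR2 reached the minimum through REC-1 alone, so that a difference between the lines was built into their passing. The same held further down for NOTCH3, NOTCH4, CD300A, IL10RA and CR1, and for NUMBL through Z138 alone. The line difference was tested with limma over all kept genes as the average of the control pair and the CC-292 pair. This test joins the spread between those 2 pairs, with 1 degree of freedom, to a spread estimated over all kept genes, with 4.5. Each line is 1 line with 1 culture per condition. No label states whether cultures were grown side by side, so the spread between the pairs may be technical.

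B-cell markers were bright on the arrays. Of 7 B-cell genes with a probe set, 6 reached the minimum on all 4 arrays, and the 7th, the surface antigen gene CD37, fell short of it only on the Z138 array with CC-292, at 4.49. CCND1 and SOX11 lay between 8.43 and 11.95. Of 6 myeloid markers none reached the minimum, with a highest value of 4.23. Of 8 T and NK markers 3 reached it on some arrays, with a highest value of 6.07 for CD3G on Z138. Of 2 erythroid markers 1, and of 4 stromal and endothelial markers 3, reached it, the highest at 6.77 for PECAM1 in REC-1 with CC-292. Hybridization controls were brighter on REC-1 arrays by a median of 0.17 in the CC-292 pair and 0.33 in the control pair. ACTB probe sets at the 3' end exceeded those at the 5' end, a measure that grows as RNA degrades, by 0.53 and 0.77 in REC-1 with CC-292 and in control, and by 1.11 and 1.12 in Z138 with CC-292 and in control. For GAPDH the same measure was -0.31 and -0.32 in REC-1 with CC-292 and in control, and -0.24 and -0.28 in Z138 with CC-292 and in control, so that only ACTB differed clearly between the lines. The part of these line differences in the results below was not tested.

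**Figure D1:**
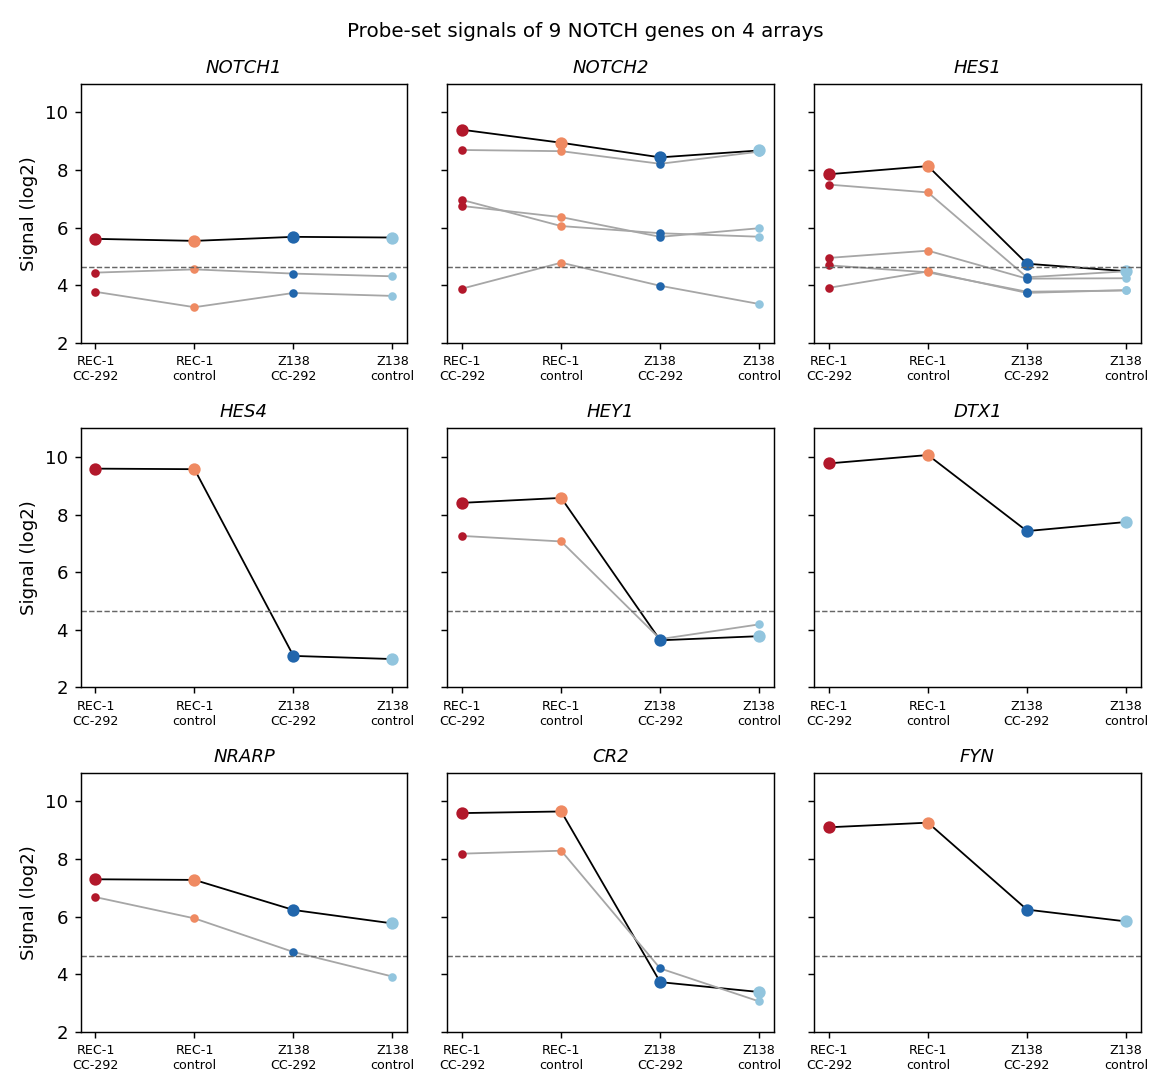
Log2 signal (vertical axis) of every probe set of the 9 genes on the 4 arrays (horizontal axis). Large points with black lines are the brightest probe set, small points with grey lines the others, and the dashed line is the minimum of 4.63. HES4, HEY1 and CR2 lie above it on both REC-1 arrays and below it on both Z138 arrays, while NOTCH1 stays level.

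The receptor genes were measured first. The brightest NOTCH1 probe set read 5.61 in REC-1 with CC-292, 5.54 in REC-1 control, 5.68 in Z138 with CC-292 and 5.66 in Z138 control. Its whole range over the 4 arrays was 0.14. The other 2 NOTCH1 probe sets stayed below the minimum on every array. The averaged line difference was -0.09 ± 0.16 (SE, adjusted p = 0.66), and no difference in NOTCH1 transcript was detectable. An array signal says nothing of the protein or of its cleaved, active form.

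NOTCH2 read 9.40 in REC-1 with CC-292 and 8.95 in REC-1 control, against 8.44 in Z138 with CC-292 and 8.68 in Z138 control. The REC-1 values were both above the Z138 values, by 0.96 in the CC-292 pair and 0.27 in the control pair. The averaged difference of 0.61 ± 0.21 (SE) did not pass the test (adjusted p = 0.066). It did pass with the mean of all NOTCH2 probe sets, at 0.60 (adjusted p = 0.013). It passed also at the stricter brightness minimum (adjusted p = 0.033) and with an intensity trend in limma (adjusted p = 0.00083). Of 5 probe sets, all 5 were higher in REC-1 in the control pair and 4 in the CC-292 pair, and the exception was the dimmest one, with 1 array above the minimum. A further 3 probe sets match both NOTCH2 and its near copy NOTCH2NLA and cannot be assigned to either. The 2 bright ones among them differed by 1.27 and 1.29 in the CC-292 pair and by 0.90 and 0.86 in the control pair. The third, a dim one, differed by 0.66 in the CC-292 pair and by -0.31 in the control pair.

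HES and HEY genes encode basic helix-loop-helix repressors that NOTCH switches on. HES4 had 1 probe set, which read 9.59 in REC-1 with CC-292 and 9.57 in REC-1 control. On the Z138 arrays it read 3.09 with CC-292 and 2.98 in control, close to the medians of the nonspecific probe sets (3.06 to 3.12). HES4 was thus at least 31.1-fold higher in REC-1 in the CC-292 pair and at least 30.7-fold in the control pair. The averaged log2 difference was at least 4.95 (adjusted p = 4.18e-05 for the deposited values, not for the bound).

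HEY1 read 8.41 in REC-1 with CC-292 and 8.58 in REC-1 control, against 3.63 in Z138 with CC-292 and 3.77 in Z138 control. Both Z138 values lay below the minimum, and the groups of a line did not overlap with those of the other. HEY1 was at least 13.7-fold higher in REC-1 in the CC-292 pair and at least 15.4-fold in the control pair. Its averaged log2 difference was at least 3.86 (adjusted p = 6.16e-05 for the deposited values, not for the bound). Its second probe set, also below the minimum on both Z138 arrays, was higher in REC-1 by at least 2.62 in the CC-292 pair and at least 2.43 in the control pair.

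HES1 read 7.85 in REC-1 with CC-292 and 8.14 in REC-1 control, against 4.75 in Z138 with CC-292 and 4.49 in Z138 control. The Z138 values lay on either side of the minimum. HES1 was 8.62-fold higher in REC-1 in the CC-292 pair and at least 11.3-fold in the control pair, with an averaged log2 difference of at least 3.31 (adjusted p = 0.00018). Its second probe set, below the minimum on both Z138 arrays, differed by at least 2.86 in the CC-292 pair and at least 2.59 in the control pair. All 5 HES1 probe sets were higher in REC-1 in both pairs, but the 3 dim ones by less than 1. The mean of all 5 gave 1.63 in the CC-292 pair and 1.72 in the control pair.

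DTX1 and NRARP are targets that also act on the pathway. DTX1, which encodes an E3 ubiquitin ligase that regulates NOTCH, had 1 probe set. It read 9.78 in REC-1 with CC-292 and 10.07 in REC-1 control, against 7.42 in Z138 with CC-292 and 7.74 in Z138 control. Unlike HES4 and HEY1, it was well above the minimum in both lines. DTX1 was 5.10-fold higher in REC-1 in the CC-292 pair and 5.02-fold in the control pair (averaged log2 difference 2.34 ± 0.15, SE, adjusted p = 0.00029).

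NRARP encodes an ankyrin-repeat protein that dampens NOTCH transcription. It read 7.30 in REC-1 with CC-292 and 7.27 in REC-1 control, against 6.23 in Z138 with CC-292 and 5.76 in Z138 control. This was the smallest line difference among the targets, 2.09-fold in the CC-292 pair and 2.85-fold in the control pair. It passed the test at 1.29 ± 0.18 (SE, adjusted p = 0.0035). A second, dimmer probe set, below the minimum in Z138 control, gave 1.91 in the CC-292 pair and at least 1.31 in the control pair.

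CR2 and FYN belong to the B-cell side of the response. CR2 encodes complement receptor 2, or CD21, which lowers the threshold of the B-cell receptor and is high on marginal zone B cells. It read 9.59 in REC-1 with CC-292 and 9.65 in REC-1 control, against 3.72 in Z138 with CC-292 and 3.38 in Z138 control. Both Z138 values were below the minimum, and CR2 was at least 31.2-fold higher in REC-1 in the CC-292 pair and at least 32.4-fold in the control pair. The averaged log2 difference was at least 4.99 (adjusted p = 4.67e-05 for the deposited values, not for the bound). A second probe set gave at least 11.7-fold and at least 12.6-fold in the CC-292 and control pairs.

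FYN encodes a Src-family kinase of antigen receptor signalling. Its 1 probe set read 9.10 in REC-1 with CC-292 and 9.26 in REC-1 control, against 6.24 in Z138 with CC-292 and 5.83 in Z138 control. All 4 values were above the minimum, with REC-1 7.26-fold higher in the CC-292 pair and 10.8-fold in the control pair. The averaged log2 difference was 3.14 ± 0.20 (SE, adjusted p = 0.00025).

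Differences between the lines were common across the array. The 9 genes were chosen with earlier results of these data known, so the shares below describe them and do not test an excess. In the control pair 11.9% of the kept genes were at least 2-fold higher in REC-1, and 7 of the 9 genes described here were. In the CC-292 pair the share was 12.0%, and the same 7 genes were at least 2-fold higher. HES4, HEY1, HES1 and CR2 were at least 8-fold higher in REC-1 in both pairs, as were 1.52% of the kept genes. Without a brightness minimum, 5.56% of 18239 genes were at least 2-fold and 0.905% at least 8-fold higher in REC-1 in both pairs. The 8-fold count was 165 genes with and without the minimum, so that only the number of genes compared changed. The effect of passing through 1 line is therefore not removed by this share. Limma called 21.6% of the kept genes higher and 23.1% lower in REC-1, and 7 of the 9 genes were called, all higher. Without the brightness minimum it called 11.8% of all genes higher and 12.6% lower, and the 7 genes were called there too. The median difference over the 9 genes, which was the same with values below the minimum raised to it, was 2.86 in the CC-292 pair and 3.43 in the control pair, against -0.03 and 0.02 over all kept genes.

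**Figure D2:**
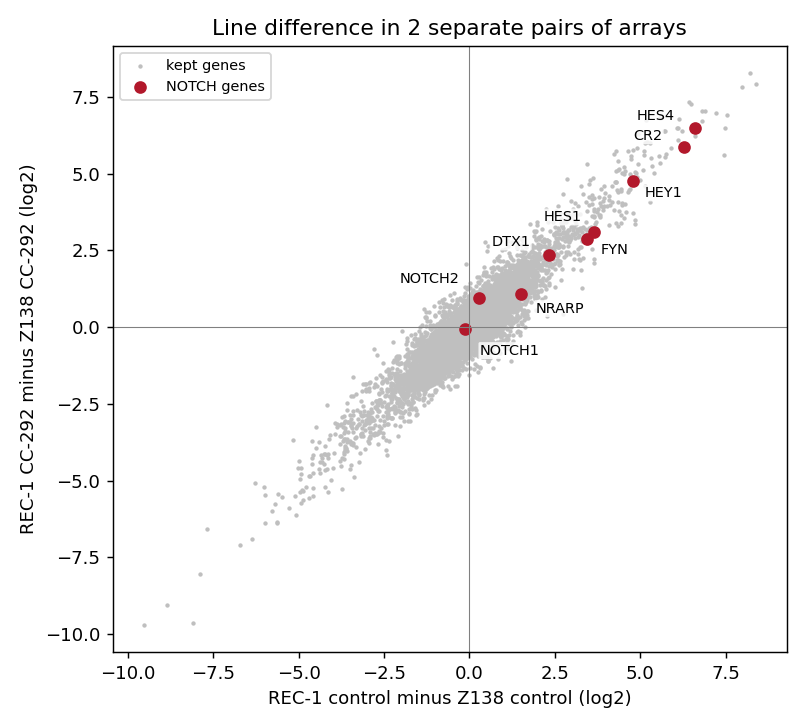
REC-1 minus Z138 difference (log2) in the control arrays (horizontal axis) and in the CC-292 arrays (vertical axis) for the kept genes (grey) and the 9 NOTCH genes (red). HES4 and CR2, whose Z138 values are below the brightness minimum, are drawn at their deposited values near the upper right end, and NOTCH1 lies at -0.12 and -0.07, near the centre.

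The genes with the most similar profiles were looked up for HES4, CR2 and HEY1, which had the widest ranges over the arrays. Likeness was the Euclidean distance between profiles centred on their means over the 4 arrays, which amounts in practice to the same size of line difference. Nearest to HES4 were PNMA5 at a distance of 0.19, UCHL1 at 0.32 and PLEKHG1 at 0.34. Nearest to CR2 were the Fc receptor-like gene FCRL1 at 0.23, CPED1 at 0.30 and PNMA5 at 0.38. Nearest to HEY1 were TFCP2 at 0.20, SCRN1 at 0.23 and NEDD9 at 0.26. HES4, CR2, HEY1 and all of these neighbours lay below the brightness minimum on both Z138 arrays, so that the distances and their order rest partly on values at background. FCRL1, which encodes a B-cell surface receptor, read 9.90 and 9.83 in REC-1 with CC-292 and in control, against 3.79 and 3.74 in Z138 with CC-292 and in control.

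The next question was whether these genes differed after BTK inhibition. In REC-1, where the targets were bright, CC-292 minus control differences ranged from -0.29 for DTX1 to 0.45 for NOTCH2. The classical targets HES4, HEY1 and HES1 were at 0.02, -0.17 and -0.28, and CR2, FYN and NRARP at -0.06, -0.16 and 0.02. None reached a 2-fold difference in REC-1, where 1.60% of the kept genes did. The median size of the difference was 0.16 over the 9 genes and 0.20 over all kept genes. Different probe sets of a gene disagreed by a pooled SD of 0.31 in this comparison, and 8 of the 9 differences on the brightest probe set were smaller than that. NRARP, at 0.02 there, was at 0.74 on its second probe set, with a mean of 0.38.

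NOTCH2 had the largest difference on the brightest probe sets, at 0.45. Of its 5 probe sets 4 were above 0 in REC-1, from 0.04 to 0.91, and the dimmest was at -0.90. The 3 probe sets shared with NOTCH2NLA were at 0.23, 0.17 and, for a dim one, 0.93. Over the 5 unshared probe sets the mean was 0.18 with an SD of 0.68. Taken over all 5, the difference did not exceed this spread. Both values include the dimmest probe set, with 1 array above the minimum, and no spread was computed without it. HES1 probe sets were split in REC-1, with 2 above 0 and 3 below, and the 2 bright ones lay at -0.28 and 0.27.

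In Z138, differences ranged from -0.32 for DTX1 to 0.47 for NRARP, and no gene reached 2-fold on its brightest probe set, where 0.564% of the kept genes did. FYN was at 0.41, CR2 at 0.34, HES1 at 0.26, HES4 at 0.11, NOTCH1 at 0.02, HEY1 at -0.14 and NOTCH2 at -0.24. The median size was 0.26, against 0.14 over all kept genes, and the pooled SD between probe sets was 0.25. On the brightest probe sets, the CC-292 difference in REC-1 minus that in Z138 stayed under 1 in size for all 9 genes. Among the kept genes 4.11% reached 1. Of the 22 probe sets 2 passed it, the dimmest of NOTCH2 at -1.53 and the second of CR2 at -1.25. For HES4, HEY1 and CR2 both Z138 arrays were below the brightness minimum, so that these differences carry little meaning. The second CR2 probe set, at 1.15, was the only 1 of the 22 probe sets to pass 2-fold in either line. It read 4.20 with CC-292 and 3.05 in control, both below the minimum. NRARP was above 0 on both of its probe sets, at 0.47 and 0.85. For HES1, 1 of the 5 probe sets was above 0 and 4 were below.

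Over both lines, limma with the cell line as a term called none of the 10823 genes for CC-292 at an adjusted p of 0.05 (0.00% higher and 0.00% lower), while 472 had an unadjusted p under 0.05. For the 9 genes the average effect lay between -0.30 for DTX1 and 0.24 for NRARP, with an adjusted p of 1.00 for each after rounding. With other choices of probe set the average was larger but still not called, at 0.52 (mean) and 0.80 (second probe set) for NRARP and at 0.52 (second probe set) for CR2. DTX1 had differences of like size in both lines, -0.29 in REC-1 and -0.32 in Z138 (average -0.30 ± 0.15, SE, unadjusted p = 0.10). HEY1 was at -0.17 in REC-1 and -0.14 in Z138, where both arrays were below the minimum. Its second probe set was at 0.19 in REC-1 and -0.51 in Z138. NOTCH1 was at 0.07 in REC-1 and 0.02 in Z138. With noise drawn from the spread that limma estimated, the same fit on simulated data recovered 99 of 100 genes changed 4-fold but 9 of 100 changed 2-fold. A change of 2-fold or less in these genes could therefore have been missed. A change in a single line counts partly as spread in this fit, and whether a larger one would be found was not tested.

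**Figure D3:**
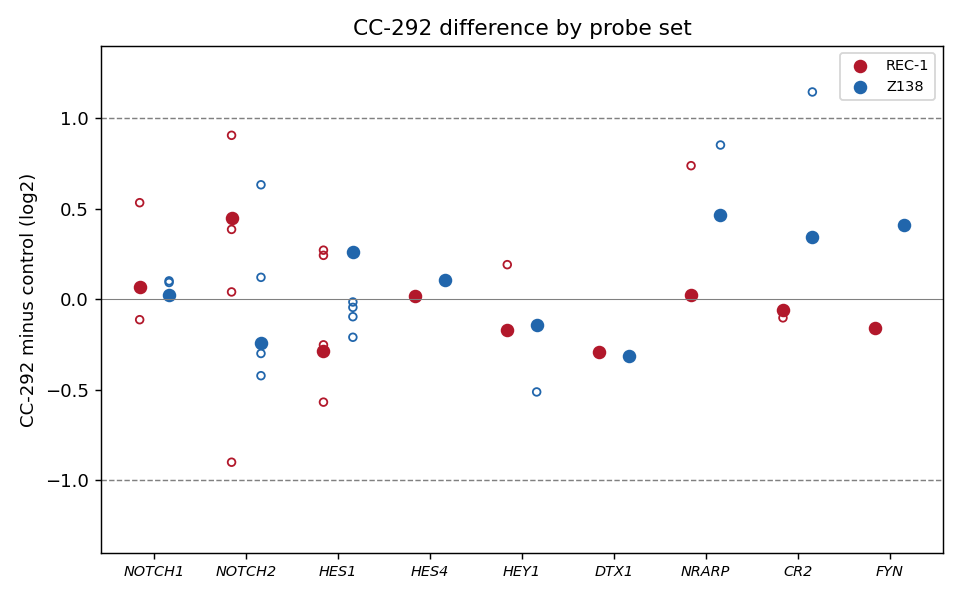
CC-292 minus control difference (log2, vertical axis) of every probe set of the 9 genes in REC-1 (red) and Z138 (blue). Filled points are the brightest probe set of a gene, open points the others, and dashed lines mark 2-fold differences. All filled points lie between -0.32 and 0.47, and 1 open point, CR2 in Z138, lies beyond 1.

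Other genes of the pathway were taken by list. Of 85 genes in 7 lists, 68 were kept. Limma called 20 of these higher and 15 lower in REC-1 than in Z138 (29.4% and 22.1%), against 21.6% and 23.1% of all kept genes. Their median difference was 0.01 in the CC-292 pair and 0.04 in the control pair, close to 0 and far from that of the 9 genes above. Both the lists and the 9 genes were chosen with earlier results known, so this contrast is not a test. None was called for CC-292.

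Among the other receptors and the ligands, NOTCH3, NOTCH4 and the ligand gene JAG1 were called higher in REC-1 and none of the 5 kept genes lower. NOTCH3, itself a known NOTCH target in T cells, read 5.68 and 6.36 in REC-1 with CC-292 and in control, against 4.37 and 3.86 in Z138 with CC-292 and in control (averaged difference at least 1.39, adjusted p = 0.0049). Its second probe set did not go the same way in either pair. NOTCH4 was higher by at least 1.43 in the CC-292 pair and at least 1.15 in the control pair (adjusted p = 0.00062 for the average). It was higher on 3 of 4 probe sets in each pair. At deposited values the mean over all 4 was 0.61 in the CC-292 pair and 0.55 in the control pair, with SDs of 1.05 and 0.90. Both NOTCH3 and NOTCH4 lay below the minimum on the Z138 arrays. The ligand genes JAG2 and DLL3 differed by -0.10 and 0.06 and were not called, and DLL1 and DLL4 did not reach the minimum.

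JAG1 showed a 2-fold CC-292 difference in REC-1. It read 8.09 in REC-1 with CC-292 and 6.98 in REC-1 control, a difference of 1.11, and 6.15 in Z138 with CC-292 and 6.33 in Z138 control, a difference of -0.18. In REC-1, 5 of its 6 probe sets were above 0, with a mean of 0.43 and an SD of 0.53 over probe sets. Its line difference was 1.94 in the CC-292 pair and 0.64 in the control pair (averaged 1.29 ± 0.32, SE, adjusted p = 0.022). In the control pair only 3 of the 6 probe sets were higher in REC-1, with a mean of 0.09 and an SD of 0.45.

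Of 13 genes that process the receptor, 1 was called higher and 1 lower in REC-1. LFNG, whose glycosyltransferase Lunatic fringe modifies NOTCH for ligand choice, differed by at least 1.59 (adjusted p = 0.0013), with the Z138 control value below the minimum. ADAM10, the protease that makes the first ligand-induced cut, differed by -1.01 ± 0.18 (SE, adjusted p = 0.0081), on 4 of 4 probe sets in the control pair.

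In the nuclear activation complex, 2 of 8 kept genes were called higher and 1 lower. The DNA-binding partner gene RBPJ read 8.74 and 8.85 in REC-1 with CC-292 and in control, against 9.22 and 9.22 in Z138 with CC-292 and in control, and its difference of -0.42 was not called (adjusted p = 0.079). The coactivator gene MAML1 differed by -0.09 (adjusted p = 0.69). Its relative MAML2 was higher in REC-1 by 2.53 ± 0.19 on its brightest probe set (SE, adjusted p = 0.00041). Over its 2 probe sets the mean was 1.15 in the CC-292 pair and 1.65 in the control pair, with SDs of 1.61 and 1.58. The acetyltransferase gene KAT2B was also higher, by 1.36.

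Among 9 kept corepressor genes, 2 were called higher and 2 lower. TLE1, a Groucho-type corepressor that HES proteins recruit, was higher in REC-1 by 3.05 ± 0.19 (SE, adjusted p = 0.00022). CTBP2 was lower, at -2.61 with all 7 probe sets below 0 in the control pair, and the demethylase gene KDM5A was at -1.41. In the trafficking and turnover list 3 of 12 were called higher and 3 lower. DTX4 and DTX3L, of the same Deltex family as DTX1, were higher by 2.90 and 1.05, and the E3 ligase gene MIB2 was at -1.13. NUMBL, below the minimum on both REC-1 arrays, was lower there by at least 1.80-fold in the CC-292 pair and at least 1.87-fold in the control pair, but its mean difference over 5 probe sets in the control pair was -0.20. It was also the second list gene with a 2-fold CC-292 difference in REC-1, 1.01. There it read 3.93 with CC-292 and 2.93 in control, both below the minimum. Only 1 of its 5 probe sets was above 0 in this comparison, with a mean of -0.08.

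**Figure D4:**
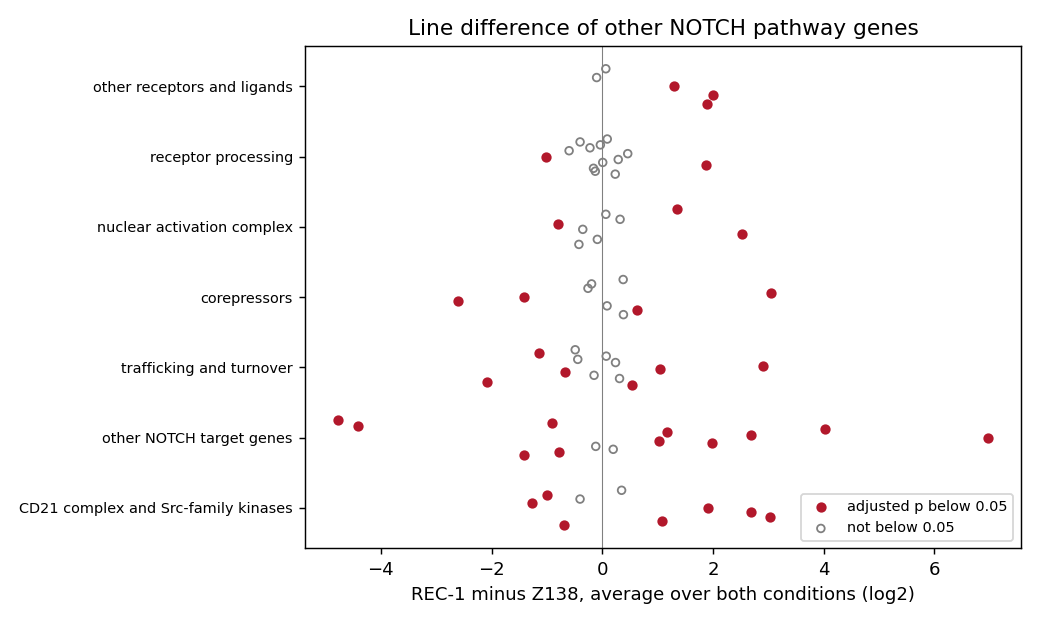
REC-1 minus Z138 difference averaged over both conditions (log2, horizontal axis) for the kept genes of 7 lists of other NOTCH pathway genes, with 1 point per gene. Points are drawn at deposited values, also where a line is below the brightness minimum. Red points had an adjusted p below 0.05, and they lie on both sides of 0 in every list but the receptors and ligands.

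Other genes known as NOTCH targets moved both ways between the lines, with 6 of 13 kept genes called higher and 5 lower in REC-1. CD300A, an inhibitory receptor gene, was higher by at least 6.04 (adjusted p = 4.18e-05) and read 3.81 and 3.59 in Z138 with CC-292 and in control, below the minimum. IL10RA, of the interleukin-10 receptor, was higher by at least 3.57 (adjusted p = 0.00027), again with both Z138 values below the minimum. On the other side stood the cell-cycle inhibitor gene CDKN1A at -4.77, the homing receptor gene CCR7 at -4.42 and MYC at -0.79 ± 0.17 (SE, adjusted p = 0.014). MYC read 11.5 and 11.2 in REC-1 with CC-292 and in control, against 12.2 and 12.1 in Z138 with CC-292 and in control. HEY2, the paralog of HEY1 and named after its values were seen, was also lower in REC-1, at -1.42 (adjusted p = 0.0035).

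In the list of CD21 partners and Src-family kinases, 4 of 9 kept genes were called higher and 3 lower. CR1, the neighbour and relative of CR2, was higher in REC-1 by at least 1.81 (adjusted p = 0.0023). Its CC-292 difference was -1.01 in Z138 and 0.59 in REC-1, but both Z138 values, 2.90 with CC-292 and 3.92 in control, were below the minimum. In each line only 1 of its 2 probe sets had that sign. LYN and BLK, kinases of the B-cell receptor, were higher by 2.68 and 1.91, and IFITM1, of the CD21 complex, by 1.08. LYN also stands in the list of targets.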

How the data were processed

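Total RNA of 4 cultures was extracted with Trizol and labelled with biotin for Affymetrix arrays, per the labels' protocols. The deposited values are log2 signals per probe set, and per the submitters' processing notes the authors used RMA and Affymetrix Expression Console 1.1, with settings not given in the sources used here. Values of 2.18 to 14.26 fit a log2 scale, which no source states. Column medians ran from 4.63 to 4.64, so a shift of most genes one way would not show.

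Of 49386 probe sets, 45259 had 1 symbol, 1327 several and 2800 none in the platform table. Those with 1 symbol were used. By Entrez identifier 45178 matched RefSeq GRCh38.p14, with no symbol changed. Upstream sequences are RefSeq's (7 of 9 genes). Arrays were grouped by GEO title. Single-line and single-pair differences have no test. Averages were fitted with limma 3.58.1 in R 4.3.3 (lmFit, eBayes, additive terms for line and CC-292, 1 residual and 4.5 prior degrees of freedom) and Benjamini-Hochberg adjustment over 10823 genes. SEs are moderated. Tested on simulated data, the line fit over 10823 genes made 12 false calls and found 98 of 100 true 4-fold changes and 45 of 100 true 2-fold changes, and the CC-292 fit made 7 false calls. Only those genes were changed in the simulation, while the line fit of the data called 4840, so these recoveries need not hold for it. Tables and plots were made in Python 3.11.15 (numpy 2.4.6, pandas 2.3.3, matplotlib 3.10.9). The number of arrays limits the precision. The members, lists and rules were chosen with earlier results of these data known. From each list the text names up to 4 genes with a difference of at least 1 in any pair, plus RBPJ, MAML1, MYC and the ligands. For up to 3 members with a range of at least 1, the 3 nearest genes were named. Alternatives were no brightness minimum, the 70th percentile, 3 scalings, 2 other choices of probe set, an intensity trend and leaving out the second term.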

Additional observations from a re-analysis of the deposited data

Results flagged for a closer look

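The CC-292 difference ran in opposite directions in the 2 lines for 4 of the 9 genes and for 3 list genes with a 2-fold difference in either line. With 1 array per group these contrasts between the lines were not tested. Opposite signs were common, at 53.0% of the 10823 kept genes. The REC-1 difference minus the Z138 difference was 0.69 for NOTCH2 (0.45 and -0.24), -0.54 for HES1 (-0.28 and 0.26), -0.40 for CR2 (-0.06 and 0.34) and -0.57 for FYN (-0.16 and 0.41). It was 1.29 for JAG1 (1.11 and -0.18), 1.06 for NUMBL (1.01 and -0.06) and 1.61 for CR1 (0.59 and -1.01). At least 2-fold contrasts of this kind were seen for 4.11% of the kept genes. Probe sets disagreed for HES1, whose contrast was 0.48 on the second probe set and -0.10 with the mean of all 5. They also disagreed for NOTCH2, at -1.53 on the dimmest of 5 probe sets and 0.22 with the mean. In REC-1, NUMBL was above 0 on 1 of 5 probe sets, with a mean of -0.08. For CR1, 1 of 2 probe sets had the sign given in each line. NUMBL in REC-1 and CR1 and CR2 in Z138 were below the brightness minimum on both arrays.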

How the results depend on the processing

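The line difference of HES1, HES4, HEY1, DTX1, NRARP, CR2 and FYN kept its direction and stayed past the test under every alternative run. Its lowest values were 1.28 for NRARP, 2.33 for DTX1, 3.14 for FYN and, with the mean of all probe sets, 1.68 for HES1. For HES4, HEY1 and CR2 these fits rest on Z138 values below the minimum, and only their bounds are given. NOTCH2 ranged from 0.25 (second probe set, adjusted p = 0.37) to 0.64. In limma it passed with the mean of all probe sets (adjusted p = 0.013), at the 70th percentile (0.033) and with an intensity trend (0.00083). NOTCH1 turned to 0.14 on its second probe set. Average CC-292 effects turned sign, without passing the test, for NOTCH1 (-0.0094), NOTCH2 (-0.19) and HES1 (0.031) on the second probe set and for HES1 with quantile normalization (0.0049). The number of genes at least 2-fold different after CC-292 in REC-1 was 173, and 47 at the 70th percentile and 70 with the mean of probe sets. In Z138 it was 61, and 99 without a minimum, 19 at the 70th percentile and 22 with the mean. For the contrast of the CC-292 differences between REC-1 and Z138 it was 445, and 768, 166 and 185 under the same alternatives. Moving the minimum changes how many dim genes are counted. For the mean of probe sets the cause was not tested. The count for the average CC-292 effect stayed at 0 in limma under all 9 alternatives. HES4, DTX1 and FYN had 1 probe set, so other probe sets could not be tried. The CC-292 effect was fitted within cell line, and without that term its count also stayed at 0. The labels give no replicate numbers to pair by. Leaving out an array leaves no residual degrees of freedom. Low signal limits the Z138 values of HES4, HEY1 and CR2.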
